A study of Mus musculus with 8 samples.

Results

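The NR4A family consists of 3 genes for orphan nuclear receptors, Nr4a1 (Nur77), Nr4a2 (Nurr1) and Nr4a3 (Nor1), and their RNA was followed here in cultured mouse hepatocytes given glucagon, the bile acid receptor agonist GW4064, or both. The genes were taken by name as the members of the family, though with earlier results of these data known. Each was represented by the probe set to which the array annotation gives that symbol alone: 17315178 for Nr4a1, 17385374 for Nr4a2 and 17413945 for Nr4a3. Each gene had 1 such probe set, and all 3 were among the 13845 genes tested.

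The cells were primary hepatocytes from male C57Bl6J mice, and a sample was hybridised to an Affymetrix MoGene 2.0 ST array. Cells received 100 nM glucagon, 100 nM glucagon with 2 µM GW4064, 2 µM GW4064, or the solvent DMSO, each for 6 h. All 4 groups, DMSO included, were in medium with 100 nM dexamethasone, a synthetic glucocorticoid. Each group had 2 arrays, 1 from each of 2 experiments; an experiment used hepatocytes pooled from 3 mice, and each sample pooled 2 technical replicates, so n = 2 counts pools of cells and not animals.

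NR4A receptors differ from most nuclear receptors in that they act without a known hormone: their pocket for ligand is closed, and their activity follows how much of the protein is made. They are immediate-early genes, and cyclic AMP raises them through protein kinase A and the transcription factor CREB. In mouse liver, fasting and glucagon raise them, and forced expression of NR4A1 raises genes of glucose production; Nr4a2 is best known for its need in midbrain dopamine neurons. GW4064 activates FXR, the nuclear receptor for bile acids.

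The promoters are shown because CREB acts on this family through several copies of a short element near the start of each gene. RefSeq windows were found for 3 of 3 genes, on build GRCm38.p6. Each ran from 250 bases before to 50 bases after an annotated start of its gene. For Nr4a1 and Nr4a3 that start lay downstream of the gene's first annotated base (chr15:101253902 and chr4:48045078). Nr4a1 lies on the plus strand (chr15:101266596-101266895), Nr4a2 on the minus strand (chr2:57123954-57124253) and Nr4a3 on the plus strand (chr4:48045055-48045354). Each is printed 5′ to 3′ along its gene, and capitals mark TGACG or its reverse complement CGTCA, the core of the cyclic AMP response element (CRE).
Nr4a1: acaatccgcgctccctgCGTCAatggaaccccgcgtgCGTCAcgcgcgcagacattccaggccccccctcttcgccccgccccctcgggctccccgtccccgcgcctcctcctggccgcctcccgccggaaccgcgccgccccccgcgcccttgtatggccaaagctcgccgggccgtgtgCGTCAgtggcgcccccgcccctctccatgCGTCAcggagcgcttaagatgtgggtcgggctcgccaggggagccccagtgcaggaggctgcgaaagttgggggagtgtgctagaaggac
Nr4a2: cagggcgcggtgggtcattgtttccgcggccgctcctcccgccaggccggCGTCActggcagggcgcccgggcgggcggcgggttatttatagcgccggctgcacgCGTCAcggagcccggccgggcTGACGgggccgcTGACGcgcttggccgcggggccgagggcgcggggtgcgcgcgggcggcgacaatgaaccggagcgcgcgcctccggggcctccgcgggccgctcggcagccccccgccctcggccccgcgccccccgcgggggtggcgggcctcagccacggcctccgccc
Nr4a3: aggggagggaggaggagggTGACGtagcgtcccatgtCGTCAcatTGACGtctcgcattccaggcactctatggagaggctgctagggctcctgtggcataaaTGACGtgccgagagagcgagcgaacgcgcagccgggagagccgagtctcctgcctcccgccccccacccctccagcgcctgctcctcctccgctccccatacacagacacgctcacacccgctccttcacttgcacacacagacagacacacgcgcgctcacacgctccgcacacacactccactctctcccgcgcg

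Each of the 3 windows held 4 copies of TGACG, counted on both strands. Positions were counted from the start used for each window. The first bases of the copies lay at -233, -213, -69 and -40 in Nr4a1. They lay at -200, -144, -123 and -111 in Nr4a2, and at -231, -213, -205 and -147 in Nr4a3. At least 4 copies were found in 37 of all 32851 windows (0.113%), and in 34 of the 13288 windows of genes tested (0.256%), whereas at least 1 copy was found in 20.8% of all windows. The NR4A windows were rich in G and C (72.3% for Nr4a1, 81.7% for Nr4a2 and 64.7% for Nr4a3, against a median of 52.7%), and of the 9690 windows with at least 60% G and C, 0.299% held 4 copies or more. Neither the palindromic element TGACGTCA, which contains TGACG on both strands and was present in 1.79% of all windows, nor AAAGGTCA, the element that NR4A monomers bind and present in 1.51%, occurred in these 3 windows. The motifs were chosen after these promoters had been seen, and the cut-off of 4 is the count these windows hold. A match is a run of letters, not a measured site. Nr4a2 had as many copies as the other members. Whether these copies bear on the RNA levels was not tested.

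The cells had the markers of hepatocytes: all 8 (Alb, Ttr, Apoa1, Apob, Hnf4a, Cps1, Ass1 and F9) were above the lower limit of a usable signal, taken as the 40th percentile of all probe sets on that array, on every array, with Alb at 12.97 to 13.11. Array medians were 3.42 to 3.57. The GW4064 array of experiment 2 stood apart. Its olfactory and vomeronasal receptor probe sets, which should have no target RNA here, had a median of 3.25, against 2.95 to 2.98 on the other 7, and it correlated with the other arrays at 0.975 to 0.985, against 0.976 to 0.997 among those.

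Glucagon raised Nr4a1 and Nr4a3 in both experiments, with and without GW4064, and did not raise Nr4a2 detectably. Values are the log2 signals the authors deposited, and differences are log2 differences. Levels of different genes come from different probe sets and are not set against each other.

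The signal of Nr4a1, whose receptor is the member most studied in liver glucose production, was 6.38 in experiment 2 and 6.26 in experiment 1 with glucagon. With glucagon and GW4064 it was 6.33 in experiment 2 and 6.24 in experiment 1. It was 4.64 and 4.51 with GW4064 and 4.46 and 4.49 with DMSO, in the same order of experiments. The lowest of the 4 arrays with glucagon (6.24) was thus well above the highest of the 4 arrays without it (4.64), and group means were 6.32 ± 0.09 with glucagon, 6.29 ± 0.07 with both, 4.58 ± 0.09 with GW4064 and 4.47 ± 0.02 with DMSO (SD, n = 2 each). In that order of levels, the means for glucagon and for both differed by less than 1 SD, and those for GW4064 and DMSO by 0.10, under the standard error of 0.12 that the fit gave for a difference.

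Nr4a3 had 7.08 in experiment 2 and 7.49 in experiment 1 with glucagon. With glucagon and GW4064 its signal was 7.05 in experiment 2 and 7.23 in experiment 1. It was 3.77 and 3.01 with GW4064 and 3.07 and 3.25 with DMSO, experiment 2 before experiment 1. The 4 arrays with glucagon stood apart from the other 4, where Nr4a3 lay between 0.12 below and 0.49 above the lower limit. It was above that limit on 6 of 8 arrays, including 2 without glucagon, so it would have been tested on those 2 alone. Group means were 7.29 ± 0.29 with glucagon, 7.14 ± 0.13 with both, 3.39 ± 0.54 with GW4064 and 3.16 ± 0.12 with DMSO (SD, n = 2 each), and the means for GW4064 and DMSO differed by less than the spread of the GW4064 arrays.

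For Nr4a2 the order was different, and the experiments differed more than the treatments. Its signal with glucagon was 4.73 in experiment 2 and 5.40 in experiment 1, and with both agents 4.62 in experiment 2 and 5.46 in experiment 1. It was 4.17 in experiment 2 and 6.72 in experiment 1 with GW4064, and 4.61 in experiment 2 and 6.43 in experiment 1 with DMSO. In experiment 1 both glucagon arrays were lower than both arrays without glucagon; in experiment 2 both were higher. The group means were 5.07 ± 0.47 with glucagon, 5.04 ± 0.59 with both, 5.45 ± 1.80 with GW4064 and 5.52 ± 1.29 with DMSO (SD, n = 2 each). They did not differ beyond their spread anywhere in the order of levels. With 1 array from each experiment in a group, that spread holds the difference between the experiments. It does not gauge treatment differences within an experiment.

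**Figure D1:**
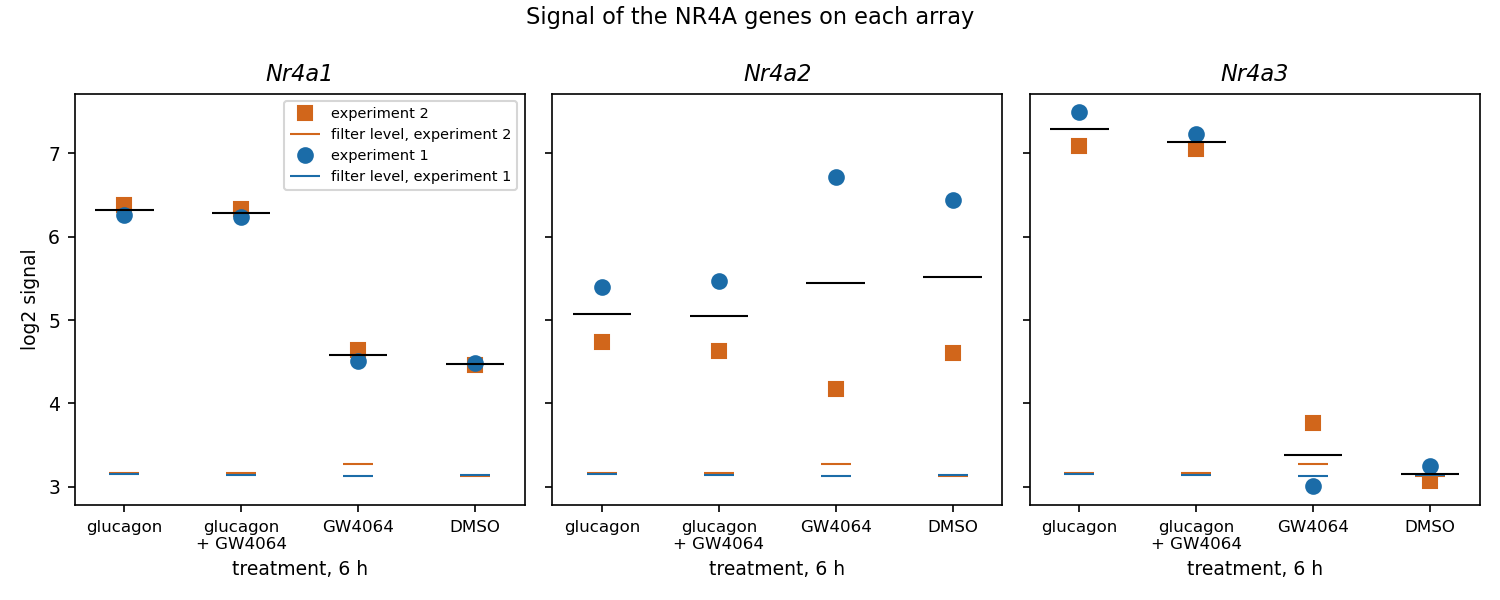
Log2 signal of Nr4a1, Nr4a2 and Nr4a3 on each of the 8 arrays, by treatment, with squares for experiment 2, circles for experiment 1, a black bar for the group mean and short coloured bars for the lower limit of signal on each array. Nr4a1 sits between 6.24 and 6.38 on the glucagon arrays and between 4.46 and 4.64 on the others, Nr4a3 between 7.05 and 7.49 against 3.01 to 3.77, while Nr4a2 separates by experiment.

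Tested with limma over all 13845 genes (Benjamini-Hochberg adjusted p, threshold 0.05), glucagon raised Nr4a1 by 1.85 over DMSO (SE 0.12, 3.60-fold, adjusted p = 0.0031) and Nr4a3 by 4.13 (SE 0.26, adjusted p = 0.0031). The rise was 1.92 in experiment 2 and 1.77 in experiment 1 for Nr4a1, and 4.01 in experiment 2 and 4.24 in experiment 1 for Nr4a3. Nr4a3 was near the lower limit with DMSO, so DMSO arrays under that limit were raised to it for the fold change. The result was 17.1-fold, an estimate from the group means and not a minimum. Among all genes tested, 15 (0.108%) rose in this comparison, Nr4a1 and Nr4a3 among them. Nr4a2 had a difference of -0.45 (SE 0.89, adjusted p = 0.999), made up of 0.13 in experiment 2 and -1.03 in experiment 1.

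The same receptors rose with glucagon when GW4064 was present on both sides. Combined treatment exceeded GW4064 alone by 1.71 for Nr4a1 (SE 0.12, 3.27-fold, adjusted p = 0.00439), with 1.69 in experiment 2 and 1.73 in experiment 1. For Nr4a3 the difference was 3.75 (SE 0.26, adjusted p = 0.00439), with 3.28 in experiment 2 and 4.22 in experiment 1. The smaller value in experiment 2 goes with the higher GW4064 array of that experiment. With the GW4064 array under the lower limit raised to it, the Nr4a3 difference was 12.9-fold, again an estimate. For Nr4a2 the difference was -0.40 (SE 0.89, adjusted p = 0.896), 0.45 in experiment 2 and -1.25 in experiment 1. Of all genes 22 (0.159%) rose.

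Against DMSO, combined treatment raised Nr4a1 by 1.81 (SE 0.12, 3.51-fold, adjusted p = 0.00352) and Nr4a3 by 3.98 (SE 0.26, adjusted p = 0.00352). The Nr4a3 rise was an estimated 15.4-fold with DMSO arrays raised to the lower limit where they were under it. In this comparison 17 of all genes (0.123%) rose. This comparison shares its DMSO arrays with glucagon against DMSO and its combined arrays with the comparison against GW4064, so the values stand side by side and do not add support to each other. Nr4a2 differed by -0.48 (SE 0.89, adjusted p = 1.00). With 2 arrays a group these calls rested on few arrays: without 1 array the adjusted p was 0.0576 to 0.0774 for Nr4a1 under glucagon against DMSO (without DMSO of experiment 1, or either glucagon array) and 0.0576 for Nr4a3 (without glucagon of experiment 1). Under combined treatment against DMSO it was 0.0559 to 0.091 for Nr4a1 (without DMSO of experiment 1 or either combined array) and 0.0788 and 0.0824 for Nr4a3 (without either combined array), and against GW4064 it was 0.116 and 0.128 for Nr4a1 and 0.11 and 0.116 for Nr4a3 without either combined array.

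With all 8 arrays used, the mean of the glucagon effects with and without GW4064 (4 arrays with glucagon against 4 without) was 1.78 for Nr4a1 (SE 0.09, 95% interval 1.58 to 1.98, 3.43-fold, limma adjusted p = 0.000305). For Nr4a3 it was 3.94 (SE 0.19, 95% interval 3.50 to 4.38, adjusted p = 0.000305). With the 2 of 4 arrays without glucagon that lay under the lower limit raised to it, the Nr4a3 effect was an estimated 14.9-fold. By experiment the averaged effect was 1.81 in experiment 2 and 1.75 in experiment 1 for Nr4a1. For Nr4a3 it was 3.65 in experiment 2 and 4.23 in experiment 1. Of all genes tested 113 (0.816%) rose and 70 (0.506%) fell. For Nr4a2 the averaged effect was -0.43 (SE 0.63, 95% interval -1.91 to 1.05, adjusted p = 0.803). With a replicate block, which takes out the difference between experiments, the interval was -1.16 to 0.30 (SE 0.30, adjusted p = 0.464). With the block and without the GW4064 array of experiment 2, the Nr4a2 effect was -0.79. In these averaged effects Nr4a1 and Nr4a3 were called in all 15 alternatives run, with adjusted p up to 0.0074 and 0.00702.

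**Figure D2:**
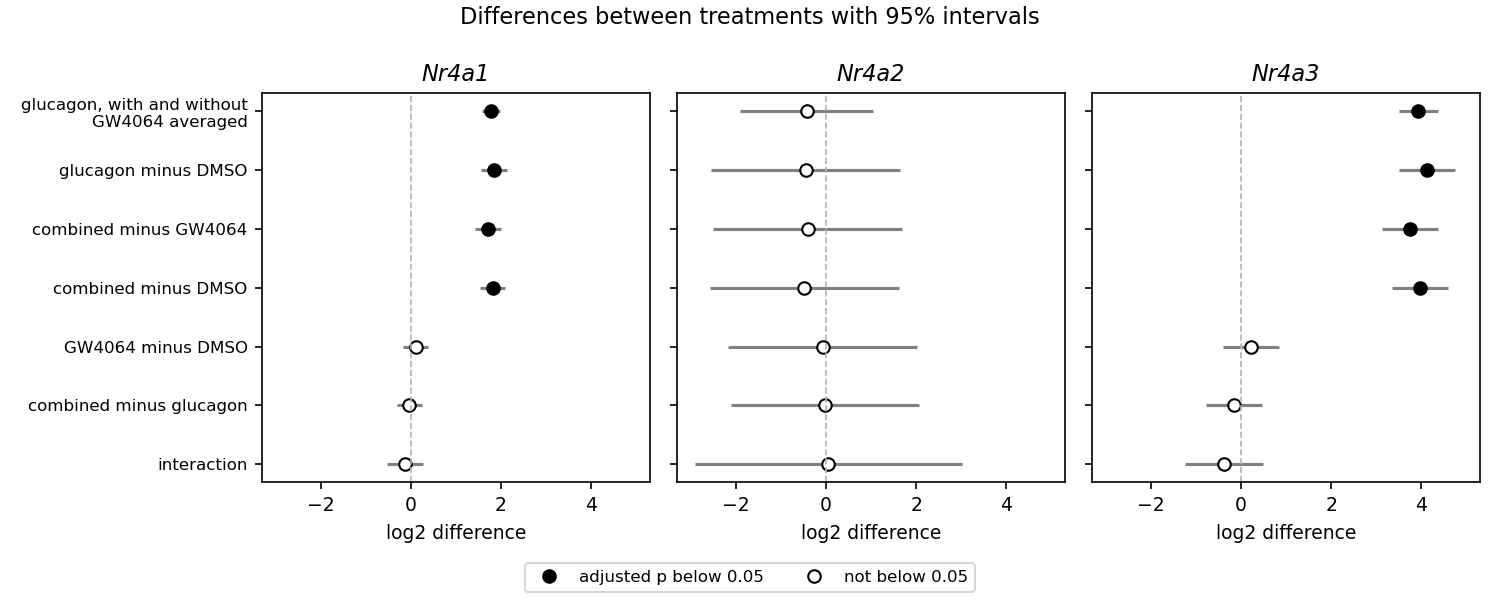
Log2 differences for the 3 genes in the treatment comparisons, with 95% intervals from the fit; filled points have an adjusted p below 0.05. Nr4a1 lies near 1.8 and Nr4a3 near 4 wherever glucagon is on one side only, both lie near 0 for GW4064, and the intervals of Nr4a2 cross 0 throughout.

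Without the GW4064 array of experiment 2 the averaged glucagon effect was 1.81 for Nr4a1 and 4.13 for Nr4a3. Of the 5 cholangiocyte markers on the array, Epcam (-0.00) and Krt19 (-0.22) were not called, Krt7 and Cftr did not pass the filter on low signal, and Sox9, which was not called either (-1.32, adjusted p = 0.133), carried the list's summed linear signal, 79.3 to 97.6 with glucagon and 117 to 274 without. The part of Sox9 or these cells in the rise of Nr4a1 and Nr4a3 was not tested.

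GW4064 left no detectable mark on the family. Against DMSO the difference was 0.10 for Nr4a1 (SE 0.12, 95% interval -0.18 to 0.39, adjusted p = 0.999), 0.23 for Nr4a3 (SE 0.26, -0.39 to 0.85, adjusted p = 0.999) and -0.07 for Nr4a2 (SE 0.89, -2.17 to 2.02, adjusted p = 0.999; -1.11 to 0.96 with a replicate block). The Nr4a3 value came from 0.69 in experiment 2 and -0.24 in experiment 1, and without the GW4064 array of experiment 2 it turned to -0.15. On top of glucagon, GW4064 changed Nr4a1 by -0.03 (95% interval -0.32 to 0.25), Nr4a3 by -0.15 (-0.77 to 0.47) and Nr4a2 by -0.02 (-2.12 to 2.07). The interaction, the glucagon effect with GW4064 minus that without it, was -0.14 for Nr4a1 (95% interval -0.54 to 0.27), -0.38 for Nr4a3 (-1.25 to 0.50) and 0.05 for Nr4a2 (-2.91 to 3.01). In limma no gene of the whole table was called in these 3 comparisons (0%), while 373, 90 and 149 genes had an unadjusted p below 0.05. For Nr4a1, rises by GW4064 alone of more than 0.39 lay outside the interval.

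Nr4a2 differed between the experiments. With treatment held in the model, it was 1.47 lower on the log2 scale in experiment 2 than in experiment 1 (difference -1.47, SE 0.30, 95% interval -2.20 to -0.74, 2.77-fold lower, limma adjusted p = 0.0474), with means of 4.53 in experiment 2 and 6.00 in experiment 1. It was lower in experiment 2 in all 4 groups, by -0.67 with glucagon, -0.84 with both, -2.54 with GW4064 and -1.83 with DMSO. Each experiment had its own cell pool, and the pool cannot be told apart from any other difference between the experiments. Of all genes 349 (2.52%) were lower and 366 (2.64%) higher in experiment 2. The call did not hold without any 1 of the 6 glucagon, combined or DMSO arrays (differences of -1.74 to -1.35, adjusted p of 0.0681 to 0.188). Without the GW4064 array of experiment 2 it was -1.11 (adjusted p = 0.0432). No difference between the experiments was called for the other members: it was 0.08 for Nr4a1 (SE 0.07, adjusted p = 0.552) and -0.00 for Nr4a3 (SE 0.19, adjusted p = 0.996). The Nr4a3 value was made up of -0.41 with glucagon, -0.19 with both, 0.76 with GW4064 and -0.18 with DMSO, and without the GW4064 array of experiment 2 it was -0.26 (adjusted p = 0.141).

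Some markers of liver cell types also differed between the experiments. The summed linear signal of 8 sinusoidal endothelial markers was 236 to 273 in experiment 2 and 373 to 393 in experiment 1; of the 6 that were tested, all were lower in experiment 2 and 1, Lyve1, was called (-1.02, adjusted p = 0.012), while Clec4g and Tek were above the lower limit on no array. The sum of 8 Kupffer cell and macrophage markers, 1364 to 1888 in experiment 2 and 1158 to 1330 in experiment 1, was carried by Cd68 (0.43 higher in experiment 2, adjusted p = 0.0466). Marco was also called (0.38, adjusted p = 0.0488), and the defining markers Clec4f, Adgre1, Csf1r, Vsig4 and Timd4 were near the limit. The sum of 7 stellate cell markers, 126 to 142 in experiment 2 and 107 to 112 in experiment 1, was higher through Reln alone (0.84, adjusted p = 0.00848), with Acta2 at -0.25 and Pdgfrb at -0.06. Sums of the 8 hepatocyte markers were 23760 to 25487 in experiment 2 and 21264 to 23505 in experiment 1, and those of 7 lymphocyte and neutrophil markers 58.8 to 63.0 in experiment 2 and 56.6 to 58.1 in experiment 1, with no member of either list called. The part of these cells in the Nr4a2 difference was not tested, and in such bulk RNA fewer cells of a type and less RNA per cell cannot be told apart.

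Whether the glucagon effect itself differed between the experiments was looked at after the values had been seen. For Nr4a2 the averaged glucagon effect was 0.29 in experiment 2 and -1.14 in experiment 1, a difference of 1.43 (SE 0.26, unadjusted p = 0.002 and adjusted p = 0.272 in limma). No gene passed the threshold for this term, with a smallest adjusted p of 0.0513 and 1377 genes at an unadjusted p below 0.05. The corresponding values were 0.06 for Nr4a1 (adjusted p = 0.907) and -0.59 for Nr4a3 (adjusted p = 0.591).

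The other nuclear receptors belong to a superfamily that includes the receptors for steroids, thyroid hormone, bile acids and fatty acids. Their averaged glucagon effects were smaller in size than those of Nr4a1 and Nr4a3. Of 46 listed, 42 had a probe set of their own and 30 were tested. Of these, 1 rose in the averaged glucagon effect and 0 fell. At the shares over all genes (0.816% up, 0.506% down) a list of this size would be near 0 in any case. The median over the 30 was 0.04, against -0.00 over all genes, and the range was -1.01 to 0.84. The top of that range was Nr1i2 (limma adjusted p = 0.144), which differed by 0.80 for GW4064 against DMSO. For combined treatment against DMSO the largest difference among the 30 was 1.83, beside 1.81 for Nr4a1, and 0 of the 30 were called. Of all genes 0.123% rose in that comparison, so 0 calls is near the share for a list of this size. The one that rose in the averaged effect was Rarb, a retinoic acid receptor. Its signal was 3.87 and 3.80 with both agents and 3.78 and 3.68 with glucagon, against 2.85 and 3.12 with GW4064 and 3.35 and 3.33 with DMSO (experiment 2, then 1). This is a difference of 0.62 (SE 0.09, adjusted p = 0.0339) close to the lower limit of signal, and it was not called without any 1 glucagon, combined or DMSO array (adjusted p of 0.0897 to 0.177). Pparg, the fatty acid sensing receptor of fat cells, had the lowest value, -1.01 (adjusted p = 0.0832), and was called with a replicate block, that is with the experiment as a term in the model (adjusted p = 0.0268).

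**Figure D3:**
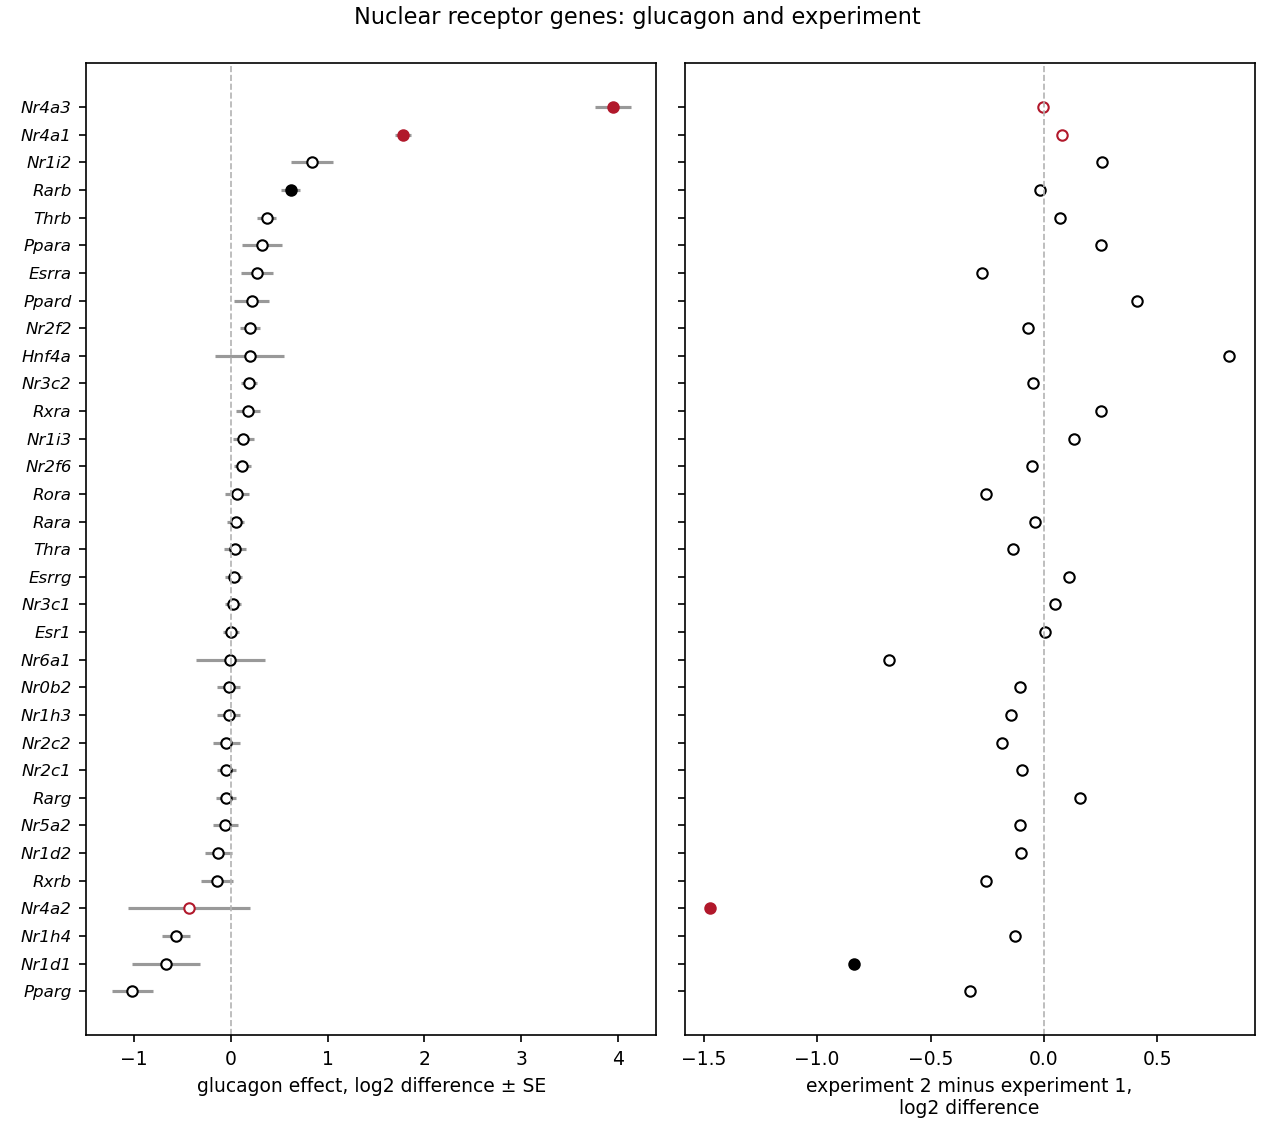
Averaged glucagon effect (left, log2 difference ± SE) and experiment 2 minus experiment 1 (right, log2 difference) of the NR4A genes (red) and the 30 other nuclear receptors tested (black), filled where the adjusted p is below 0.05. Nr4a3 at 3.94 and Nr4a1 at 1.78 lie above the highest of the others, 0.84, and Nr4a2, at -0.43 on the left, is lowest on the right at -1.47.

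The cyclic AMP and CREB response list, which held other known targets of the pathway, split. Of 24 genes 23 were tested: 8 rose, 2 fell and 13 did not pass, with a median of 0.05. Over all genes tested 0.816% rose and 0.506% fell. Those that rose were led by enzymes and regulators of glucose production. G6pc, the catalytic subunit that releases glucose, had 9.79 and 10.39 with glucagon and 9.89 and 10.16 with both, against 6.03 and 5.94 with GW4064 and 6.03 and 5.93 with DMSO (experiment 2, then 1), an averaged effect of 4.08 (SE 0.15, adjusted p = 0.000131). Pck1, which makes phosphoenolpyruvate for glucose production, rose by 5.15 (SE 0.28, adjusted p = 0.000571), and Ppargc1a, the coactivator PGC-1α, by 3.46 (SE 0.30, adjusted p = 0.00589). Ppargc1a, like Nr4a3, was under the lower limit on some arrays without glucagon, so the sizes of these rises are not ranked.

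Nearer to Nr4a1 in size were Irs2, the adaptor of the insulin receptor, which rose by 1.82 (SE 0.12, adjusted p = 0.00142), and Sik1, a kinase that restrains CREB coactivators, with 1.60 (SE 0.20, adjusted p = 0.0187). Egr1, an immediate-early zinc finger factor, went the other way: its signal was 4.11 and 4.15 with glucagon and 4.32 and 4.18 with both, against 5.94 and 5.99 with GW4064 and 5.15 and 5.81 with DMSO (experiment 2, then 1), an averaged effect of -1.53 (SE 0.15, adjusted p = 0.00805). The other gene that fell was Klf9, at -0.57, a factor named here after its value was seen. At 6 h, therefore, the immediate-early genes Nr4a1 and Nr4a3 were raised while Egr1 was lowered. Of the same list, Fos (0.05), Fosb (0.05), Junb (-0.88), Atf3 (-0.77), Btg2 (-0.50) and Dusp1 (-0.27) were not called. Junb was called as lower with a replicate block (limma adjusted p = 0.0354). These genes too were named after their values were seen. With a replicate block, where 370 genes (2.67%) rose and 427 (3.08%) fell in all, 8 of this list rose and 4 fell. Without any 1 glucagon, combined or DMSO array 4 or 5 rose and 0 or 1 fell, Sik1 being lost each time (adjusted p of 0.0525 to 0.111) and Egr1 without any 1 glucagon or combined array (0.0522 to 0.0615).

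**Figure D4:**
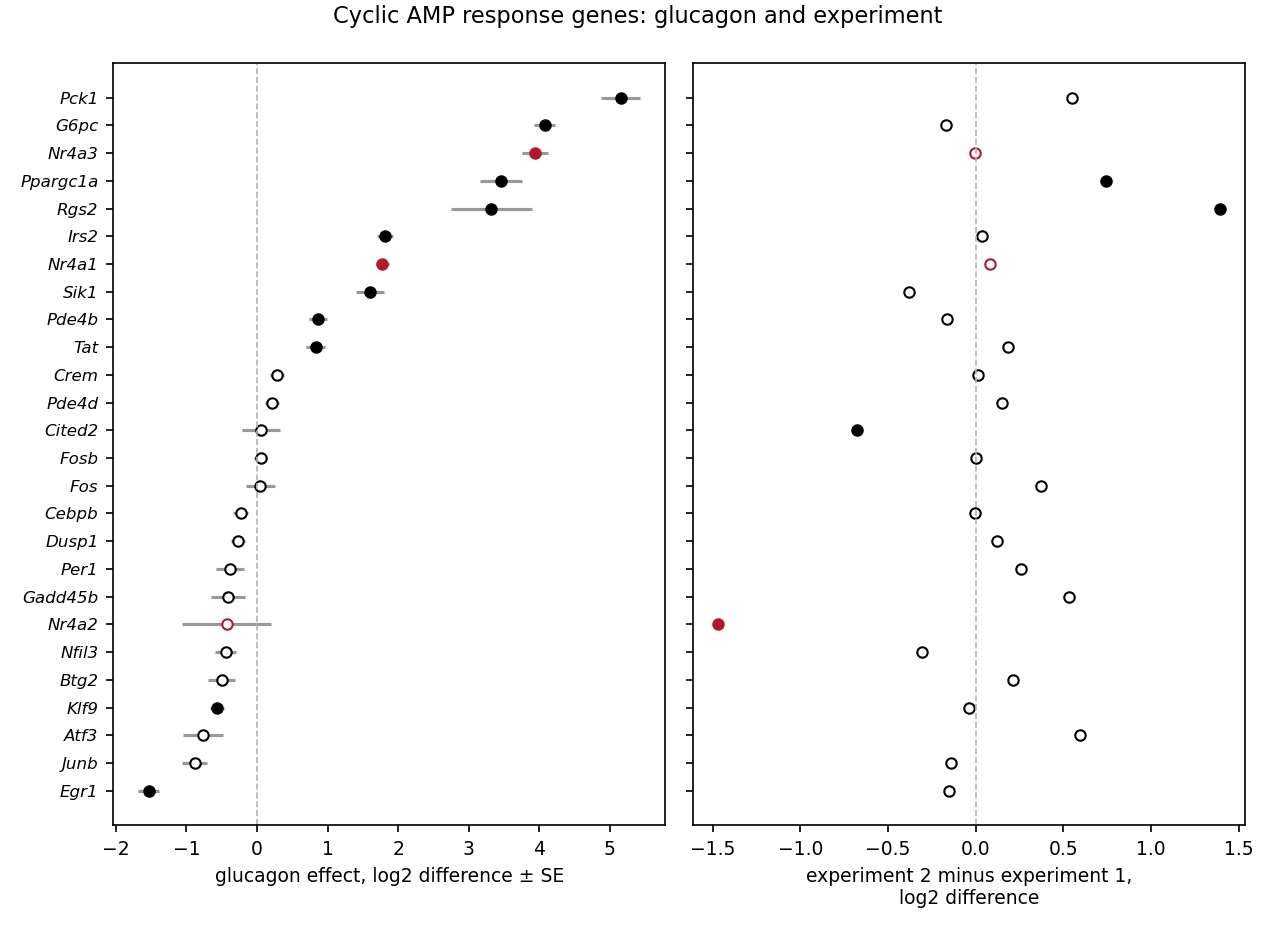
Averaged glucagon effect (left, log2 difference ± SE) and experiment 2 minus experiment 1 (right, log2 difference) of the NR4A genes (red) and the 23 other cyclic AMP and CREB response genes tested (black), filled where the adjusted p is below 0.05. Pck1 at 5.15, G6pc at 4.08 and Nr4a3 at 3.94, whose signal without glucagon was near the lower limit, lie to the right, Irs2 at 1.82 lies beside Nr4a1 at 1.78, and Egr1 is lowest at -1.53.

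Of 21 genes for the receptor, G proteins, adenylyl cyclases, protein kinase A subunits, CREB and its coactivators 16 were tested, and 0 rose or fell, with a median of 0.04; at the shares over all genes (0.816% up, 0.506% down) a list of this size would be near 0 in any case. The members with the lowest p were Crtc3, a CREB coactivator, at -0.31 (SE 0.09, adjusted p = 0.188), and the adenylyl cyclase Adcy9, at 0.55 (SE 0.18, adjusted p = 0.214), Adcy9 being called with a replicate block (adjusted p = 0.0294).

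Of 14 partners and coregulators of NR4A receptors 9 were tested, and 0 rose or fell, with a median of -0.01, which again is near the share over all genes (0.816% up, 0.506% down). Rxra and Rxrb, genes for the retinoid X receptors with which NR4A1 and NR4A2 form dimers, had 0.18 (SE 0.12) and -0.14 (SE 0.17). Kdm1a, a histone demethylase that NR4A2 recruits in microglia together with the scaffold protein Rcor1, had -0.49 (SE 0.10, adjusted p = 0.0792, and 0.024 with a replicate block). Rcor1 had -0.26 (SE 0.15, adjusted p = 0.485).

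A further 6 genes reported to respond to NR4A receptors in rodent liver were all tested. G6pc, which also stands in the cyclic AMP list, was the 1 that rose. Over all genes tested 0.816% rose and 0.506% fell in the averaged glucagon effect. The fructose bisphosphatases Fbp1 and Fbp2 had 0.40 (SE 0.24) and 0.31 (SE 0.14), the enolase Eno3 0.13 (SE 0.09), and the glucose transporter Slc2a2 0.18 (SE 0.26). Srebf1, the regulator of fatty acid synthesis, had 0.20 (SE 0.09, adjusted p = 0.377). All 6 differences were positive, with a median of 0.25, where 49.1% of all genes were positive, and 5 did not pass the test. The direction reported for each gene was not set out, so the shared sign is not read as agreement with those reports.

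The genes whose profiles over the 8 arrays lay closest to those of the raised members were found by the root-mean-square difference between log2 signals, each gene centred on its own mean. For Nr4a3, whose own root-mean-square deviation was 1.99, the nearest of all genes was G6pc at 0.218, and at 0.104 without the GW4064 array of experiment 2. Ppargc1a followed at 0.549, then the mitochondrial ornithine carrier Slc25a15 at 0.581, Etnppl, which breaks down phosphoethanolamine, at 0.625, and Aass, the first enzyme of lysine breakdown, at 0.669. For Nr4a1, whose own deviation was 0.891, the nearest were Slc25a22, a mitochondrial glutamate carrier, at 0.134, the organic anion transporter Slco1a4 at 0.151, Pmvk of the mevalonate pathway at 0.160, Tpbgl at 0.163 and Irs2 at 0.168. In either case 4 of the 5 were also among the nearest 5 without that array. These distances describe 8 arrays that share treatments and cell pools.

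**Figure D5:**
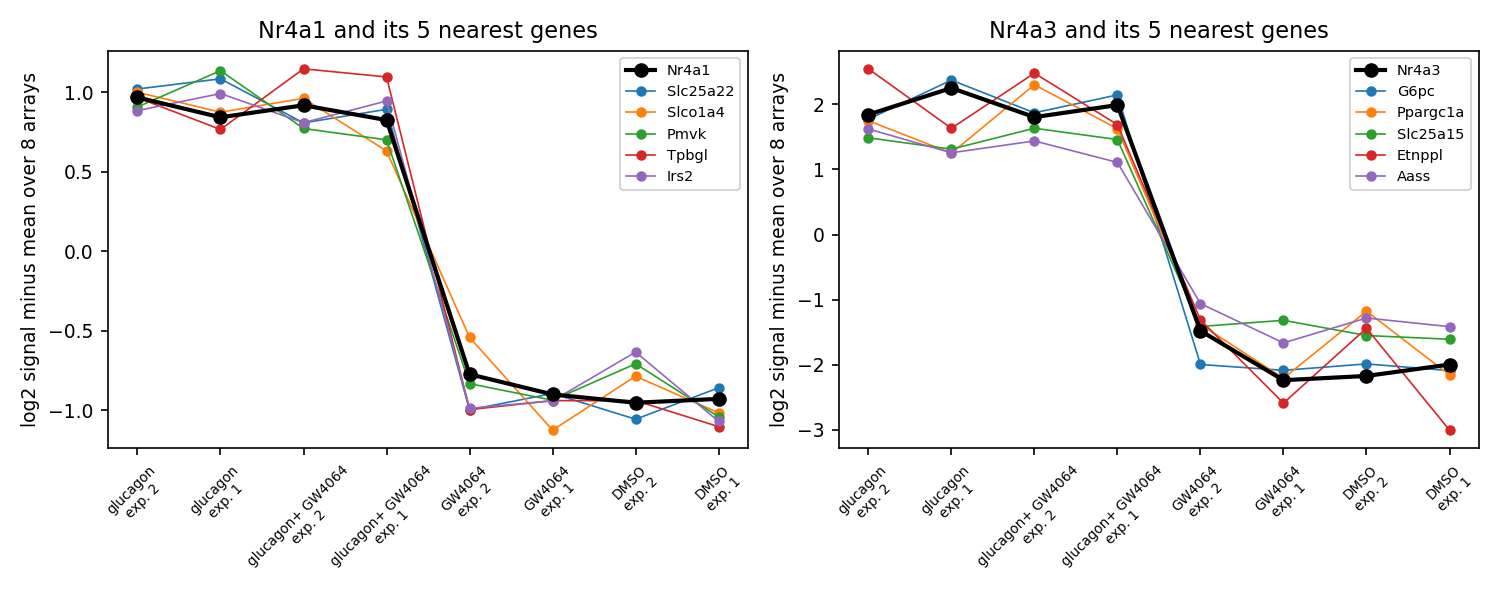
Centred log2 signal over the 8 arrays of Nr4a1 and Nr4a3, each with its 5 nearest genes. Slc25a22 follows Nr4a1 most closely, and G6pc follows Nr4a3 with a root-mean-square difference of 0.218.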

How the data were processed

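RNA (300 ng a sample, labelled with the WT PLUS kit) was measured on 8 Affymetrix MoGene 2.0 ST arrays. The authors deposited one log2 signal per probe set and array; per the labels these came from GeneSpring, and which version and which normalization it used is not given in the sources used here. The deposited values were used as they stand. Of 41345 probe sets 23521 carried 1 gene symbol, 1814 several and 16010 none. Probe sets whose signal exceeded the array's 40th percentile on 2 or more arrays were kept (27338); for the 615 genes with several, the one with the highest mean over 8 arrays was taken, giving 13845 genes.

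limma 3.58.1 in R 4.3.3 was fitted with 1 mean per group (4 residual degrees of freedom), with 7 treatment contrasts and Benjamini-Hochberg adjustment over all genes in each; experiment 2 against experiment 1 used a model with treatment and experiment. The script was tested on simulated data. Array number limits precision. The labels put samples of 1 number in the same experiment, and the deviations of same-numbered samples correlated at 0.350 to 0.620 over the 6 pairs of groups, so the numbers pair the samples. Alternatives were a replicate block, quantile normalization, other filters, only the groups compared and each array left out.

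Lists were described by counts and medians. From each, up to 6 members that passed in a treatment comparison and the 2 with the lowest p for the averaged glucagon effect were named, and for each NR4A gene that passed, its 5 nearest profiles. Members and lists were chosen with earlier results of these data known.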

Additional observations from a re-analysis of the deposited data

Results flagged for a closer look

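The effect of glucagon on Nr4a2 had opposite signs in the 2 experiments on all pairs of arrays. It was 0.13 without and 0.45 with GW4064 in experiment 2, against -1.03 and -1.25 in experiment 1, a difference between the averaged effects of 1.43 (SE 0.26, limma adjusted p = 0.272). The 0.45 rests on the GW4064 array of experiment 2, which stood apart. In that experiment the combined array exceeded DMSO by only 0.02.

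The effect of GW4064 on Nr4a2 also had opposite signs. It was -0.43 without and -0.11 with glucagon in experiment 2, against 0.28 and 0.06 in experiment 1, a difference of -0.44 (SE 0.64, limma adjusted p = 0.999). The -0.43 rests on that same GW4064 array of experiment 2.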

How the results depend on the processing

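The rises of Nr4a1 and Nr4a3 in the averaged glucagon effect passed in all 15 alternatives, at 1.75 to 1.81 and 3.75 to 4.19. The replicate block, which pairs samples of 1 experiment, changed no call of the 3 genes in the treatment comparisons. With it 128 genes were called for glucagon against DMSO (16 without it), 147 for both against GW4064 (23), 102 for both against DMSO (17) and 797 for the averaged effect (183). With the replicate block and without the GW4064 array of experiment 2 the counts were 438, 190, 342 and 1454, and 4 uncalled values changed sign: GW4064 against DMSO was 0.64 for Nr4a2 and -0.28 for Nr4a3, and the interaction -0.66 for Nr4a2 and 0.13 for Nr4a3. With all probe sets tested, 9, 9, 8 and 69 were called. With only the groups compared in the fit, 9, 3 and 9 were called, and for both against GW4064 the rises of 1.71 for Nr4a1 (adjusted p = 0.142) and 3.75 for Nr4a3 (0.108) did not pass. The causes were not tested. Within experiments, without a test, Nr4a3 moved to 3.28 in experiment 2 and 4.22 in experiment 1 for both against GW4064, to 0.69 and -0.24 for GW4064 against DMSO and to 3.65 and 4.23 for the averaged effect. Each gene had 1 probe set, so no other could be tried.

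With each array left out in turn, 2 to 27 genes were called for glucagon against DMSO, 2 to 759 for both against GW4064, 2 to 24 for both against DMSO, 0 to 406 for GW4064 against DMSO, 25 to 702 for the averaged effect, and 0 for both against glucagon and for the interaction. The counts of 759, 406 and 702 came with GW4064 of experiment 1 left out, so that the array of experiment 2 stood alone in its group; without the array of experiment 2 the same comparisons gave 9, 0 and 354. Nr4a1 ranged from 1.78 to 1.91 for glucagon against DMSO, from 1.65 to 1.77 for both against GW4064, from 1.77 to 1.86 for both against DMSO and from -0.10 to 0.029 for both against glucagon. Nr4a3 ranged from 3.92 to 4.33, 3.37 to 4.13, 3.89 to 4.07 and -0.35 to 0.054 in these comparisons, from -0.15 to 0.61 for GW4064 against DMSO, from -0.76 to 0.0020 for the interaction and from -0.26 to 0.13 for experiment 2 against experiment 1. Nr4a2 ranged from -1.37 to 0.46, -1.67 to 0.87, -1.39 to 0.44 and -0.44 to 0.40 in the same 4 comparisons, from -1.35 to 1.20 for GW4064 against DMSO, from -1.22 to 1.32 for the interaction, from -1.06 to 0.21 for the averaged effect and from -1.74 to -1.11 between experiments. Signal near the lower limit bounds what can be said of Nr4a3 without glucagon.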

Other observations

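Other genes of the lists differed between the experiments, as Nr4a2 did. Rgs2, a brake on G protein signalling, was higher in experiment 2 by 1.39 and Ppargc1a by 0.74 (limma adjusted p = 0.0146), while Cited2, a transcriptional coregulator, differed by -0.67 and the clock receptor Nr1d1 by -0.84. Of the genes reported to respond to NR4A receptors, Slc2a2 was higher in experiment 2 by 0.66 (adjusted p = 0.0135) and Fbp1 by 0.57 (adjusted p = 0.0322). These genes were named after their values were seen.

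The core element TGACG was present at least once in 26.0% of the 123 promoter windows of genes that rose in the averaged glucagon effect, and in 28.2% of the 13288 windows of all genes tested. At least 4 copies were present in 2 of those 123 windows (1.63%), those of Nr4a1 and Nr4a3, and in 0.256% of the windows of all genes tested. The cut-off of 4 is the number of copies in the NR4A windows themselves, so these 2 members meet it by its choice. The shares at that cut-off are therefore no support. The differences between these shares were not tested.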
